A study of Mus musculus with 6 samples.

Results

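The genes described here are the collagens of the mouse, chosen by name as every row of the count table whose symbol is Col, a type number, a and a chain number. There were 44 such genes among 27179 rows, and they were split by collagen type into 11 fibrillar genes (types 1, 2, 3, 5, 11, 24 and 27), 8 basement membrane genes (types 4, 15 and 18) and 25 others. The RNA came from bone marrow stromal cells of C57BL/6 mice at postnatal day 2, genotype Cxcl12-dsred/+, in which a red reporter sits in the gene of the chemokine Cxcl12. The cells were DsRed-positive and negative for CD45 (blood), Ter119 (red cells) and CD31 (endothelium), and all 3 groups of libraries share this genotype, age and sort. In MeRIP (RNA immunoprecipitation for methylated RNA) poly(A) RNA is bound by an antibody to N6-methyladenosine (m6A), a methyl mark inside mRNA. The groups were Input (6% of the RNA, kept before the pull-down), IgG (RNA held by beads with control IgG) and anti-m6A (RNA held by beads with the m6A antibody), with 2 libraries in each. The labels say nothing of separate animals or cultures behind the libraries, so a p-value here sets a difference against the scatter among libraries, and that scatter may be purely technical.

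A collagen is a protein of 3 chains wound into a triple helix, and in the helix every 3rd residue is glycine. Fibrillar collagens give bone and marrow their tensile fibres, type 4 collagen forms the sheet of basement membranes, and the remaining types decorate fibrils, build fine networks or cross the cell membrane. Chains are folded and hydroxylated in the endoplasmic reticulum, packed by large export carriers, trimmed outside the cell and cross-linked. Stromal cells of the marrow, which hold blood stem cells in place and give rise to bone-forming cells, are rich in type 1 collagen.

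The glycine at every 3rd place is written in the mRNA as a GGN codon, and this repeat is the sequence that the 44 transcripts share. In 31 of the 44 genes at least 1 exon inside the repeat was 54 bases long, that is, 18 codons, and Col1a1 held 21 such exons, Col1a2 23 and Col3a1 24. An exon of this length is shown for each of 6 genes on which the results turn, read 5′ to 3′ on the coding strand of the GENCODE M21 transcripts (build GRCm38), with the GGN codon of every 3rd place in capitals.
Col1a1: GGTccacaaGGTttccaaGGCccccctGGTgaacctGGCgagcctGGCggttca
Col1a2: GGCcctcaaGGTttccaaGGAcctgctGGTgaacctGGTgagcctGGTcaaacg
Col3a1: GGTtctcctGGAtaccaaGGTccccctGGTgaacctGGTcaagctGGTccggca
Col4a1: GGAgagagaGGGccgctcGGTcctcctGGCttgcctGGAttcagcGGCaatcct
Col6a1: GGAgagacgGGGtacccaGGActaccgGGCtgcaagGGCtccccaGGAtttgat
Col22a1: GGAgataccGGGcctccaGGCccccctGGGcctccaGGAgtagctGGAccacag
They are exon 8 of Col1a1 at chr11:94939904-94939957 (plus strand), exon 8 of Col1a2 at chr6:4515481-4515534 (plus), exon 7 of Col3a1 at chr1:45325805-45325858 (plus), exon 7 of Col4a1 at chr8:11245211-11245264 (minus), exon 14 of Col6a1 at chr10:76718059-76718112 (minus) and exon 46 of Col22a1 at chr15:71857251-71857304 (minus). Laid base on base against the exon of Col1a1, that of Col1a2 had 42 of 54 bases the same and that of Col3a1 38. The exons of Col22a1, Col4a1 and Col6a1 had 26, 25 and 23 bases the same. The tetramer GGAC, which is part of the consensus around many m6A sites, occurred once in the exons shown of Col1a2, Col6a1 and Col22a1, each time as a GGA codon before a C, and in the other 3 exons it did not occur.

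Across whole transcripts (1 per gene, GENCODE M21) the repeat set the fibrillar class apart, while the other classes overlapped. The longest run with a GGN codon at every 3rd place had a median of 1014 codons in fibrillar, 123 in basement membrane and 156 in the other collagens, and of 6 codons over the 10324 tested genes of the table that had a transcript. A run of at least 100 codons occurred in 84.1% of collagens and in 0.262% of those genes. The 11 fibrillar transcripts had runs of 648 codons (Col24a1) to 1032 (Col3a1), and in each of them the median internal exon was 54 bases. The shortest run, 69 codons, belonged to Col26a1.

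The motif GGAC was denser in collagen transcripts than in most: the median was 8.85 per kb of transcript, against 4.23 over all tested genes. It ranged from 4.6 per kb in Col12a1 to 14.2 in Col13a1. In the coding sequence a median of 80.0% of the GGAC motifs of a collagen began at the first base of a codon, as a GGA glycine codon followed by C, while over all tested genes the median was 20.0%. The longer motif GGACT had a median of 1.74 per kb in collagens and 1.06 in all tested genes. Searched on the transcript's own strand, GGAC was in 100% of collagens and 99.5% of all tested genes, and GGACT, each copy of which holds a GGAC, in 100% and 91.3%. Collagen transcripts were also longer, with a median of 5626.5 bases against 2837, and cut into more exons, with a median of 48 against 9.

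**Figure D1:**
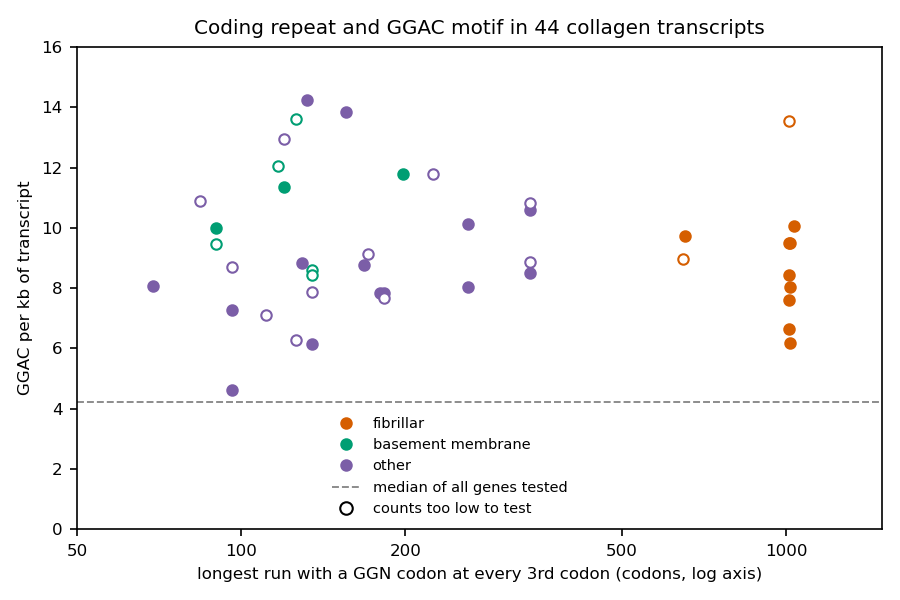
Each point is 1 of the 44 collagen genes; the x axis (log) is the longest run with a GGN codon at every 3rd codon, in codons, and the y axis is GGAC motifs per kb of transcript. The 11 fibrillar genes (orange) sit at 648 codons or more, the others at 339 or fewer, and all 44 lie above the dashed median of 4.23 per kb of all genes tested.

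The deposited counts summed to 7125578 and 9493391 in Input, 2487148 and 1278735 in IgG and 6102070 and 5133237 in anti-m6A. Levels are given as CPM, counts scaled to a common library size after TMM scaling, and 3 counts stood for 0.291 to 0.355 CPM in Input, 1.16 to 1.94 in IgG and 0.622 to 0.756 in anti-m6A. Replicates scattered beyond sampling noise in every group. Variance between them exceeded that noise 119 times in the Input pair, 21.9 times in the IgG pair and 9.93 times in anti-m6A. This ratio grows with the counts per gene and was taken over 9898, 2300 and 10291 genes, so its 3 values do not rank quality. The 1 fit gave all groups the same spread per gene. Input replicate 2 stood apart in 7 hepatocyte markers, which summed to 924 CPM there and 68.6 in replicate 1. Of the sorted cells' own markers, all 8 niche stroma genes (Cxcl12, Lepr and others, 6382 to 6478 CPM) and all 7 osteoblast genes were found in both Input libraries, whereas the chondrocyte markers Acan, Matn1, Cnmd, Hapln1 and Comp had 0 counts in both. Ptprc, which encodes the sorted-out CD45, had 0 counts in all 6 libraries. Of the 9 blood markers, though, 5 (Hbb-bs, Hba-a1, Hba-a2, S100a8 and S100a9) had counts in both Input libraries. The 9 summed to 486 to 774 CPM in Input and 1076 to 1253 in anti-m6A, where the hepatocyte markers summed to 451 to 496. The IgG libraries held 16102 to 17141 CPM of the hepatocyte markers and 5251 to 6190 CPM of 9 blood markers, and 2737 to 2816 CPM of the niche stroma markers, of which 4 of 8 had counts in both IgG libraries and Kitl, Pdgfra and Prrx1 had none. Smart-seq2 amplifies RNA without molecular identifiers, so the intervals below cover counting error only.

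Of the 44 genes, 26 passed the filter on low counts (9 fibrillar, 3 basement membrane and 14 others). Because a gene could pass through 1 group alone, these 26 are not a sample of all collagens. At 0 counts in all 6 libraries were 7 genes: Col4a6, a basement membrane chain; Col9a1, Col19a1 and Col20a1, fibril-associated chains; Col6a4 and Col6a6, chains of the type 6 family; and Col7a1, the collagen of the anchoring fibrils under skin. The remaining 11 were too low or too uneven to test. Col24a1, a fibrillar chain, had 0 and 179 counts in Input replicates 1 and 2 and 0 elsewhere. Col15a1, a basement membrane chain, showed the same split with 0 and 256 counts, and then 1 count in an IgG library. Col4a3 had 14 and 7 counts in the anti-m6A libraries and 0 in the other 4. Col11a2 had 0 and 15 counts in Input and 7 and 7 in anti-m6A, and Col25a1 had 14 and 13 in Input and 3 and 4 in anti-m6A. Col6a5 had 4 and 6 counts, in anti-m6A alone, and Col4a5 15 counts, in Input replicate 2 alone. Col10a1, the collagen of hypertrophic cartilage, had 1 and 3 counts, both in anti-m6A, and Col4a4, Col9a3 and Col28a1 had 1, 2 and 1 counts in a single anti-m6A library.

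In the Input RNA the chains of type 1 collagen stood highest. Levels of different genes were compared as CPM per kb of exon, with overlapping exons of a gene's transcripts merged. Col1a2 had 169.9 and 177 CPM per kb in the 2 Input libraries and Col1a1 117 and 206, so these 2 overlapped. Next came Col4a2 (77.4 and 65.1) and Col4a1 (68.4 and 55.3), the paired chains of the common type 4 collagen, then Col6a1 (64.8 and 43.2), Col5a2 (40.7 and 51.2), Col3a1 (39.7 and 42.9) and Col6a2 (25.5 and 36.3). Type 5 and type 3 chains join type 1 in fibrils, and type 6 chains build the beaded filaments around cells. In this order neighbours overlapped between the replicates, except that Col1a1 lay above Col4a2 and Col3a1 above Col6a2 in both libraries. Per kb of the longest transcript instead, Col1a2 averaged 403, Col3a1 72.8, Col5a2 66.5 and Col6a2 52.4 CPM per kb, more than 1 SD from their levels of 174, 41.3, 45.9 and 30.9 per kb of exon, and Col1a2 then lay above Col1a1 (179). Col2a1, the fibrillar collagen of cartilage, had 1 count in Input replicate 1 and 214 in replicate 2. In such bulk RNA, fewer cells of a type and less RNA per cell cannot be told apart.

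Collagens took up a similar share of both Input libraries, 0.8% (exact 95% interval 0.793 to 0.806) and 0.820% (0.814 to 0.825) of all counts. In anti-m6A they took 0.285% (0.281 to 0.289) and 0.282% (0.278 to 0.287), and in IgG 0.247% (0.241 to 0.253) and 0.251% (0.243 to 0.260). The 3 groups do not overlap in this share, with 2 libraries each. The fibrillar share of a library went from 0.485% and 0.559% in Input to 0.139% and 0.138% in anti-m6A, and the basement membrane share from 0.135% and 0.103% to 0.0749% and 0.0731%. Within the collagen counts alone, fibrillar genes held 60.6% and 68.2% in Input, 48.7% and 48.8% in anti-m6A and 75.5% and 83.3% in IgG, while basement membrane genes held 16.9% and 12.5%, 26.3% and 25.9%, and 3.99% and 3.8%. In IgG 1 gene made up most of the collagen counts: Col1a1, with 62.1% and 68.1%, against 11.4% and 17.9% in Input and 11.4% and 11.8% in anti-m6A. Without Col1a1, collagens were 0.709% and 0.672% of the Input libraries, 0.253% and 0.249% of anti-m6A and 0.0937% and 0.0802% of IgG.

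**Figure D2:**
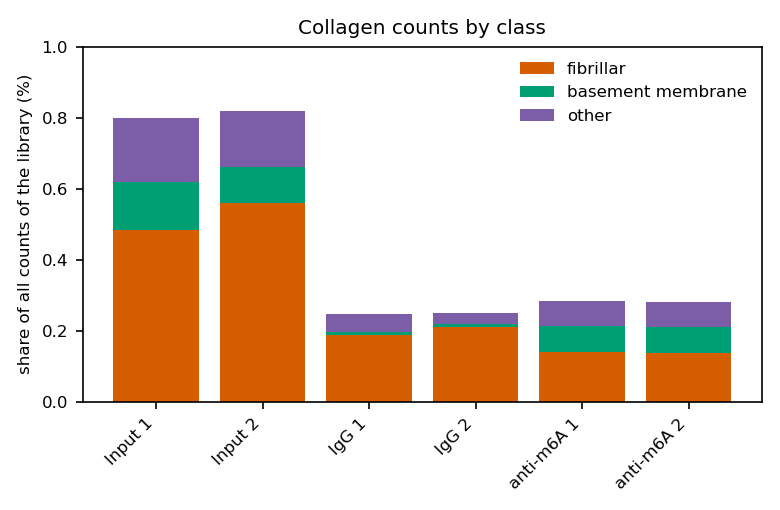
Bars show the share of all counts of a library (y axis, percent) that fell on fibrillar, basement membrane and other collagens, for each of the 6 libraries. The bars reach 0.8% and 0.820% in Input and between 0.247% and 0.285% in the 4 pull-down libraries, and the green basement membrane part is nearly missing in IgG.

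The first comparison asked which collagen transcripts the m6A antibody held relative to the RNA it was offered. Most tested collagens fell from Input to anti-m6A: 15 of 26 were called lower and 1 higher by edgeR's quasi-likelihood test (adjusted p under 0.05 over 11281 genes), where 20.5% of all genes were called lower and 28% higher. With library totals in place of TMM these were 17 and 1 collagens, and 27.7% and 23.1% of all genes. The median log2 change of the 26 was -1.09, and that of all genes tested was 0.18. By class, 6 of 9 fibrillar genes were lower (median -1.09), 2 of 3 basement membrane genes (median -0.83) and 7 of 14 others (median -1.17). Counts are per gene and relative to the library, so a lower value says that a transcript made up less of the bound RNA, and not where or how much it is methylated.

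These calls needed both anti-m6A libraries. A fit without 1 of them took its spread from the Input and IgG pairs alone. A fit without 1 Input library took it from the IgG and anti-m6A pairs, so call counts between these fits rest on different spreads. Without anti-m6A replicate 1 edgeR called no collagen (10 were lower at an unadjusted p under 0.05), and without replicate 2 it called Col1a2 alone (11 lower at an unadjusted p under 0.05), at medians of -1.13 and -1.25. All genes lost calls alike there, down to 0.614% and 0.776% called lower. Without Input replicate 1 there were 18 lower and 5 higher calls, and without Input replicate 2 there were 16 and 4. Calls over all genes went up too, to 33.1% lower and 39.5% higher without the first and 29.8% and 44.2% without the second.

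Among the fibrillar collagens, both chains of type 1 collagen, the main protein of bone, fell. Col1a1 (chr11:94936224-94953042, GRCm38) had 769 and 1354 CPM in Input, 1475 and 1417 in IgG and 410.0 and 430.1 in anti-m6A, a log2 change of -1.34 ± 0.29 (SE) from Input to anti-m6A (edgeR adjusted p = 0.0169). Col1a2 (chr6:4505618-4541543) had 2111 and 2202 CPM in Input, 30.9 and 21.4 in IgG and 697 and 741 in anti-m6A, a change of -1.58 ± 0.21 (adjusted p = 0.00716). For both, the 2 anti-m6A libraries lay below both Input libraries, but only Col1a2 also lay above IgG. The call of Col1a1 was lost when Input and anti-m6A were fitted alone (adjusted p = 0.0668).

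The fibril partners of type 1 moved by similar amounts. Col3a1, abundant in soft and reticular tissue, had 389 and 421 CPM in Input and 197 and 186 in anti-m6A (log2 change -1.08 ± 0.22, adjusted p = 0.0192). Col5a2, a type 5 chain that helps to start fibrils, had 389.9 and 491 CPM in Input and 214 and 199 in anti-m6A (-1.09 ± 0.24, adjusted p = 0.0245). The gene lies on chr1 next to Col3a1, 24.6 kb away and on the other strand. Its partner Col5a1, with 149 and 203 CPM in Input and 89.8 and 90.3 in anti-m6A, did not pass (-0.97 ± 0.29, adjusted p = 0.0560). It was called lower by DESeq2 (-1.40, adjusted p = 2.92e-08). In edgeR it was called with DESeq2 size factors (-1.40, adjusted p = 0.0160) or library totals (-1.50, adjusted p = 0.0136) in place of TMM. With no count filter, a replicate block or the compared groups alone it was not called. Col3a1, Col5a2 and Col5a1 had 0 counts in both IgG libraries, and in all 3 genes the Input and anti-m6A libraries did not overlap.

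The largest falls of the class were in chains known from cartilage. Col11a1 had 104 and 182 CPM in Input and 39.4 and 36.6 in anti-m6A (-1.91 ± 0.39, adjusted p = 0.0208), and Col27a1 had 162 and 235 and then 60.8 and 50.9 (-1.83 ± 0.33, adjusted p = 0.0148). Both were at 0 in IgG, and both Input libraries were above both anti-m6A libraries. Col2a1, the major cartilage collagen, had 0.118 and 20.8 CPM in Input against 27.8 and 25.0 in anti-m6A, and did not pass (1.33 ± 1.86, adjusted p = 0.601). Both anti-m6A values lay above both Input values on the TMM scale alone. Scaled by library totals, Input replicate 2 (214 counts of 9493391) lay above both anti-m6A libraries (134 of 6102070 and 99 of 5133237). The summed chondrocyte markers were 18.8 to 19.1 CPM in Input and 17.4 to 25.5 in anti-m6A, nearly all of it Sox9 in Input. Col5a3, a minor type 5 chain, had 15.3 and 18.2 CPM in Input and 18.5 and 22.2 in anti-m6A (0.28 ± 0.24, adjusted p = 0.395; -0.26 with library totals).

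**Figure D3:**
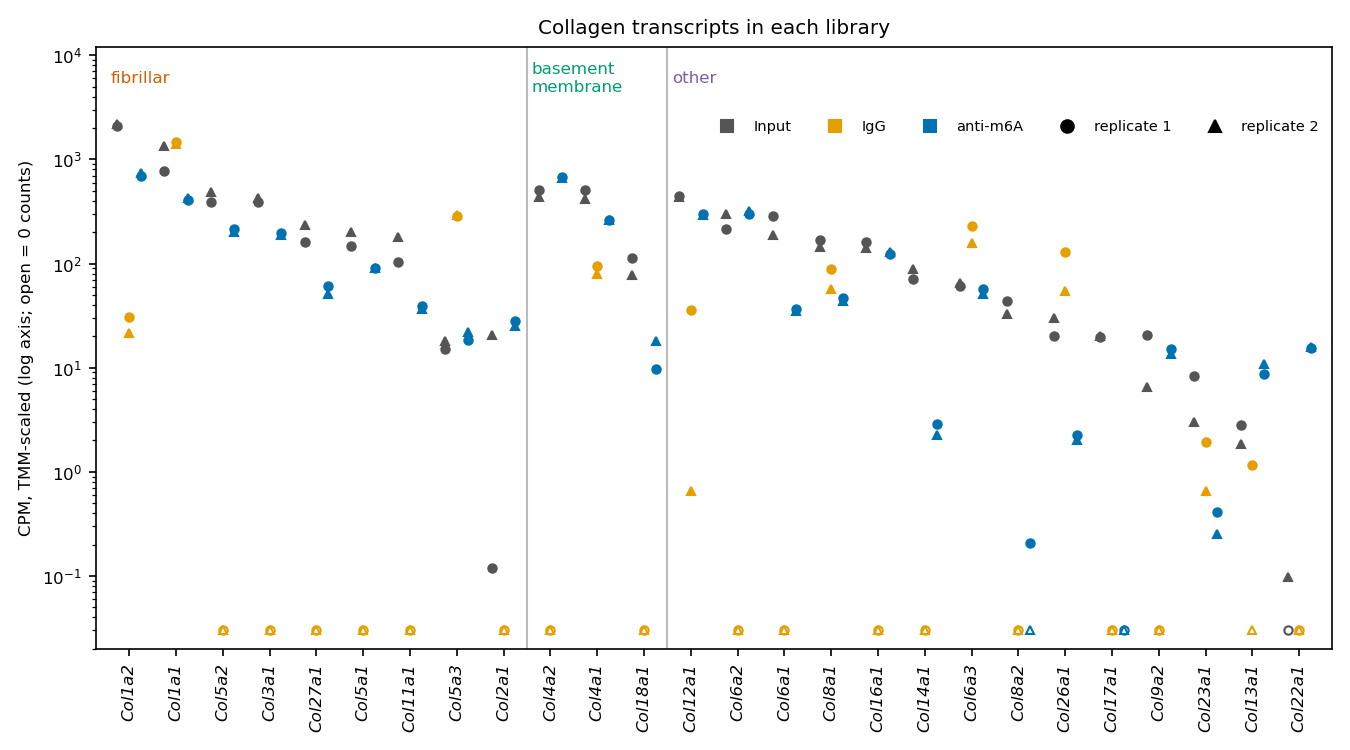
CPM (log axis) of the 26 tested collagens in each library, grouped by class and ordered by their Input mean; colours are the groups, circles and triangles the 2 replicates, and open symbols at the bottom stand for 0 counts. Most blue points (anti-m6A) lie below the grey ones (Input), and 16 genes have both IgG points at 0.

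Among the basement membrane collagens the paired type 4 chains differed. Col4a1 had 511 and 413 CPM in Input and 261 and 259 in anti-m6A (-0.83 ± 0.22, adjusted p = 0.0280), with 94.3 and 79.1 in IgG. Col4a2 had 512 and 431 CPM in Input and 674 and 667 in anti-m6A (0.51 ± 0.20, adjusted p = 0.106) and 0 counts in IgG. Col4a2 was thus above Input in both anti-m6A libraries by these values, without passing the test; with Input and anti-m6A fitted alone it passed (log2 change 0.61, adjusted p = 0.0434), and with library totals in place of TMM the sign turned (-0.04). The 2 genes lie head to head on chr8, overlapping by 85 bases, and their products join in 1 molecule. Col18a1, whose C-terminal fragment is endostatin, had 114 and 77.1 CPM in Input and 9.75 and 17.9 in anti-m6A (-2.79 ± 0.49, adjusted p = 0.0141), and 0 counts in IgG.

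The type 6 chains, which assemble as a trio, were split likewise. Col6a1 had 284 and 189 CPM in Input and 36.9 and 35.0 in anti-m6A (-2.72 ± 0.34, adjusted p = 0.00718). Col6a2, 85.2 kb away on the same strand of chr10, had 213 and 302 CPM in Input and 296 and 322 in anti-m6A (0.26 ± 0.28, adjusted p = 0.486; -0.27 with library totals in place of TMM). Both had 0 counts in IgG, and only the values of Col6a1 were separate between Input and anti-m6A. Col6a3, the long chain of the trio, had 61.2 and 65.1 CPM in Input and 56.8 and 50.7 in anti-m6A (-0.23 ± 0.28, adjusted p = 0.539), and 230.4 and 156 in IgG.

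Among the fibril-associated collagens with interrupted helices, Col14a1 fell furthest, from 70.5 and 89.4 CPM in Input to 2.90 and 2.27 in anti-m6A (-4.93 ± 0.44, adjusted p = 0.00716). Col22a1, a collagen known from tissue junctions, was the only collagen called higher: it had 0 and 1 counts in Input, 0 and 0 in IgG and 74 and 62 in anti-m6A (adjusted p = 0.00716). Its ratio of CPM between anti-m6A and Input was 290 with an exact 95% counting interval of 51.2 to 11549.5. Col12a1 had 444 and 431 CPM in Input and 297 and 294 in anti-m6A, below Input in both, but its IgG libraries held 93 counts and 1 count and widened the spread of the fit (-0.57 ± 1.13, adjusted p = 0.713). Without IgG replicate 1 it was called lower (-0.62 ± 0.17, adjusted p = 0.0485). Col16a1 (159 and 139.9 CPM in Input, 122 and 129 in anti-m6A, -0.25 ± 0.25, adjusted p = 0.464) and Col9a2 (20.5 and 6.5, then 15.1 and 13.6, 0.09 ± 0.70, adjusted p = 0.927) did not pass.

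The short-chain type 8 collagens, found in the lining of vessels and the eye, were both lower. Col8a1 had 169 and 143 CPM in Input, 88.9 and 56.4 in IgG and 46.7 and 44.1 in anti-m6A (-1.78 ± 0.32, adjusted p = 0.00953). Col8a2 had 372 and 335 counts in Input, 0 and 0 in IgG and 1 and 0 in anti-m6A, a ratio of Input to anti-m6A of 331 (59.3 to 13100.6; adjusted p = 0.00716). Endothelial markers, summed over 6 genes, were 41.2 to 72.4 CPM in Input, 9.33 to 10.4 in anti-m6A and 0 in IgG. Pecam1, which encodes the sorted-out CD31, had 92 and 69 counts in Input, Kdr 88 and 56, and Tek 168 and 110. Emcn had 0 and 511 counts in Input, and Cdh5 and Tie1 had 0 there. The part of endothelial RNA in these results was not tested.

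Collagens that cross the cell membrane were few and low. Col17a1, a collagen of hemidesmosomes, had 168 and 209 counts in Input and 0 in all 4 pull-down libraries, which puts anti-m6A at least 29.1-fold below Input (adjusted p = 0.00716) and IgG at least 12.9-fold. Col23a1 had 70 and 31 counts in Input and 2 and 1 in anti-m6A, a ratio of 15.8 (5.25 to 77.8; adjusted p = 0.0147); the fitted log2 change was -3.97, and -3.03 without Input replicate 1. Col13a1 had 2.84 and 1.84 CPM in Input and 8.71 and 10.8 in anti-m6A, higher in both but not called (2.05 ± 0.78, adjusted p = 0.0801). Col26a1, a short collagen outside the other groups, had 20.0 and 30.3 CPM in Input, 129.9 and 55.1 in IgG and 2.28 and 2.02 in anti-m6A (-3.53 ± 0.57, adjusted p = 0.00771).

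**Figure D4:**
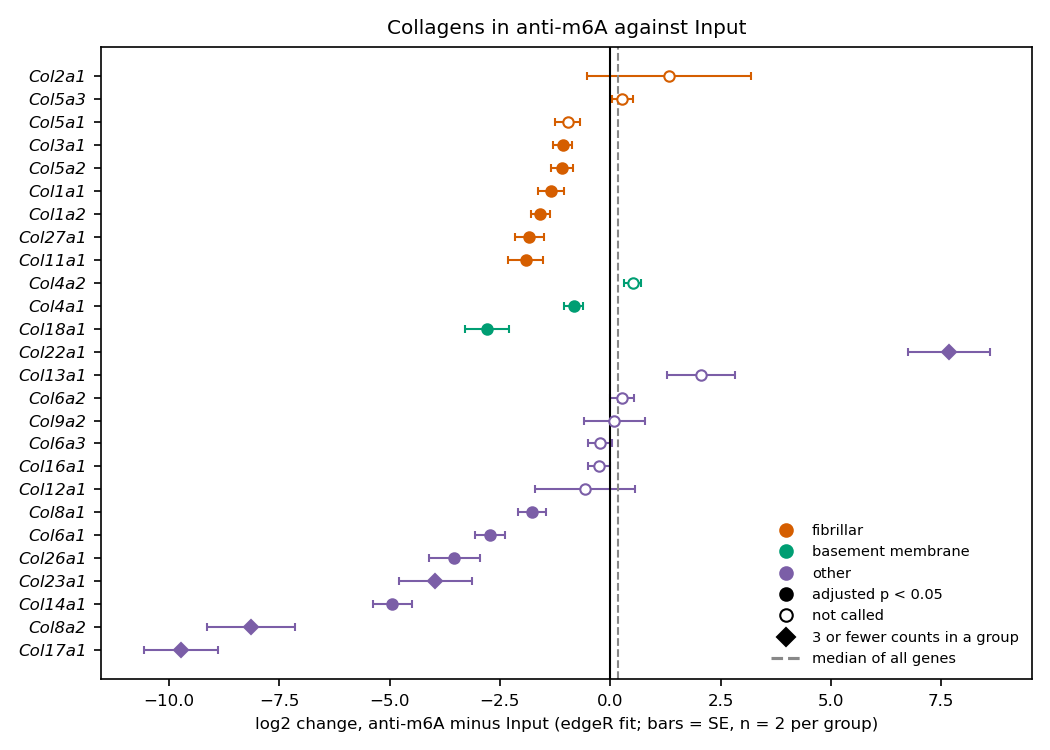
Points are the log2 change from Input to anti-m6A in the edgeR fit (x axis) of the 26 tested collagens (y axis), with bars of 1 SE and 2 libraries per group; filled symbols passed an adjusted p of 0.05, and diamonds mark genes with 3 or fewer counts in a group, whose fitted size depends on the prior count. The 15 filled symbols left of 0 span all 3 classes, and Col22a1 alone is filled on the right; the dashed line is the median of all genes at 0.18.

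Chains of 1 collagen type join in fixed ratios in the protein. The share of a chain in the counts of a pair was followed from library to library; gene length enters every library alike. Col4a2 gave 50.1% (exact 95% interval 49.0 to 51.1) and 51.1% (50.0 to 52.2) of the counts of the Col4a2 and Col4a1 pair in Input and 72.1% (70.8 to 73.4) and 72% (70.5 to 73.5) in anti-m6A. In IgG it gave 0 of 244 and 0 of 122 counts, which allows up to 1.5% and 2.98%. For Col6a2 and Col6a1 the share of Col6a2 was 42.8% (41.3 to 44.4) and 61.5% (60.1 to 62.8) in Input and 88.9% (87.3 to 90.4) and 90.2% (88.5 to 91.7) in anti-m6A. In both pairs the second chain took a larger share of the pair in each anti-m6A library than in either Input library, by more than the distance between replicates.

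The type 5 and type 1 pairs gave closer shares in Input and anti-m6A. Col5a1 made up 27.6% (26.3 to 28.9) and 29.3% (28.2 to 30.3) of the Col5a1 and Col5a2 counts in Input and 29.6% (27.2 to 32.0) and 31.2% (28.5 to 33.9) in anti-m6A, with intervals that overlap. Col1a1 made up 26.7% and 38.1% of the type 1 counts in Input and 37.0% and 36.7% in anti-m6A, inside the Input range. In IgG the share of Col1a1 was 97.9% (97.4 to 98.4) and 98.5% (97.9 to 99.0), since Col1a2 was nearly missing there. Col8a2 went from 20.6% and 18.5% of the type 8 counts in Input to 0.442% and 0% in anti-m6A, where it had 1 and 0 counts beside 225 and 175 of Col8a1. Col5a3 went, in its pair with Col5a1, from 9.31% (7.83 to 11) and 8.25% (7.15 to 9.45) in Input to 17% (13.9 to 20.6) and 19.7% (16.1 to 23.7) in anti-m6A. Col3a1 went from 15.6% (15.1 to 16.1) and 16.1% (15.6 to 16.5) of its counts with Col1a2 to 22.1% (20.8 to 23.3) and 20.1% (18.8 to 21.4). Col2a1 gave 0.114% and 10.3% of its counts with Col11a1 in Input, 1 and 214 counts, and 41.4% and 40.6% in anti-m6A.

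**Figure D5:**
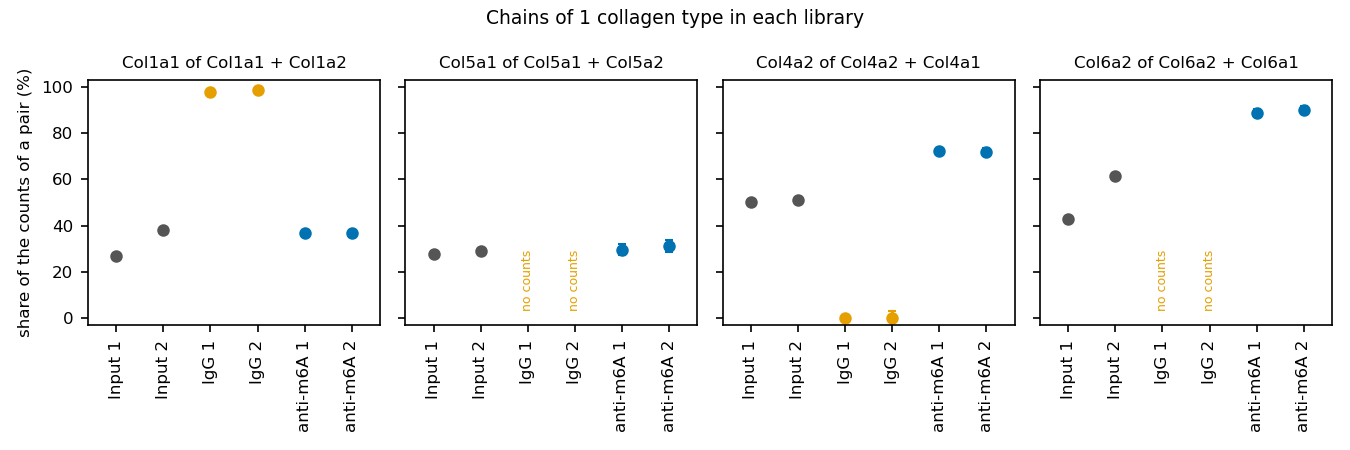
Each panel shows, per library, the share (y axis, percent) of 1 chain in the summed counts of a pair, with exact 95% binomial intervals, most of them smaller than the points. From Input to anti-m6A, Col4a2 goes from 50.1% and 51.1% to 72.1% and 72% of its pair and Col6a2 from 42.8% and 61.5% to 88.9% and 90.2%, while Col5a1 stays between 27.6% and 31.2%; IgG holds almost only Col1a1 of the type 1 pair and only Col4a1 of the type 4 pair.

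The second comparison set the m6A antibody against IgG beads, the background of the pull-down. Of the 26 tested collagens 17 were higher in anti-m6A and 4 were lower, where 73.1% of all genes were called higher and 8.31% lower. In both IgG libraries 16 of the 26 had 0 counts (61.5%), close to the 73.4% of all genes tested, and 9 had counts in both. The fitted median of 7.99 (8.48 over all genes) hangs on such zeros; with them set at their bound of 3 counts per library the median log2 change was 3.89 (3.1 over all genes). The comparison shares the anti-m6A libraries with the one before it.

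Where IgG was at 0, only a lower bound can be given. Col4a2 was at least 432-fold higher in anti-m6A than in IgG, Col6a2 at least 199-fold, Col5a2 133-fold, Col3a1 124-fold and Col16a1 80.9-fold. For Col5a1, Col27a1, Col11a1 and Col6a1 the bounds were 58.0-, 36.0-, 24.5- and 23.2-fold, for Col22a1, Col9a2 and Col18a1 9.98-, 9.26- and 8.91-fold, and for Col14a1 1.67-fold; all 13 were called. Of genes seen in IgG, Col1a2 was higher in anti-m6A by a log2 change of 4.77 ± 0.25 (adjusted p = 0.000548), Col4a1 by 1.58 ± 0.22 (adjusted p = 0.00202) and Col12a1 by 3.96 ± 1.29 (adjusted p = 0.0337). The size for Col12a1 hangs on its 93 counts and 1 count in IgG: the fitted change was 3.02 without IgG replicate 2 and 8.80 without replicate 1. Col13a1, with 3 and 0 counts in IgG, was 13.3-fold higher (4.40 to 65.8; adjusted p = 0.0131), a call lost without either anti-m6A library (adjusted p = 0.110 and 0.147); without IgG replicate 2 the log2 change was 3.04. Col2a1, at 0 in IgG, was at least 17-fold higher without passing the test (adjusted p = 0.0623).

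A short list of collagens made up more of the RNA on IgG beads than of the RNA bound by the antibody. Counts are relative to the library, so the amounts of RNA held are not compared. Col1a1 was lower in anti-m6A than in IgG (-1.78 ± 0.30, adjusted p = 0.00345), as were Col5a3 (-3.84 ± 0.27, adjusted p = 0.000568), Col6a3 (-1.85 ± 0.29, adjusted p = 0.00291) and Col26a1 (-5.41 ± 0.61, adjusted p = 0.00118; -4.65 without IgG replicate 1). These 4 had between 85 and 3814 counts in each IgG library. Col8a1 (-0.68 ± 0.31, adjusted p = 0.0923) and Col23a1, with 5 and 1 counts on IgG beads and 2 and 1 with the antibody, were not called, nor were Col8a2 and Col17a1, which both antibodies left at 1 count or fewer per library.

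The third comparison, IgG against Input, describes which collagens the beads held without the antibody. Here 18 of 26 were lower in IgG and 3 higher, where 61.5% of all genes were lower and 9.89% higher. The 3 higher were Col5a3, with 15.3 and 18.2 CPM in Input and 287 and 296 in IgG (4.12 ± 0.27, adjusted p = 0.000516), Col6a3 (1.62 ± 0.29, adjusted p = 0.00437) and Col26a1 (1.88 ± 0.51, adjusted p = 0.0202). The call of Col26a1 was lost without IgG replicate 1 (log2 change 1.07, adjusted p = 0.129). Col1a1 did not differ beyond the spread (0.45 ± 0.29, adjusted p = 0.223), whereas Col1a2 was lower by 6.36 on the log2 scale (-6.36 ± 0.27, adjusted p = 0.000516).

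Among chains of 1 type, then, IgG held Col1a1 but little Col1a2, Col5a3 but no counts of Col5a1 or Col5a2, Col6a3 but none of Col6a1 or Col6a2, and Col4a1 but none of Col4a2. At 0 in IgG, Col4a2 was at least 304-fold lower than in Input, Col5a2 284-fold, Col3a1 261-fold, Col6a2 166-fold and Col6a1 152-fold. Col4a1 was lower by 2.41 on the log2 scale (-2.41 ± 0.23, adjusted p = 0.000715) with counts of 244 and 122. The summed hepatocyte and blood markers, given above, were higher in IgG than in Input or anti-m6A, although Ambp, Ptprc and Elane had 0 counts in IgG; their part in the collagen results was not tested.

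Genes that act on collagens were counted by 3 lists. Of 23 genes of folding, modification and export, 21 were tested; 12 were lower and 1 higher in anti-m6A than in Input, beside the 20.5% and 28% of all genes, with a median log2 change of -1.01. The largest falls were in Tmem38b, an ion channel of the endoplasmic reticulum (460 and 429 counts in Input, 9 and 4 in anti-m6A, -5.03 ± 0.55, adjusted p = 0.00716), and Sec23a, a coat protein of export vesicles (347 and 312, then 14 and 6, -3.99 ± 0.60, adjusted p = 0.00969). The gene called higher was P3h2, a prolyl hydroxylase, with 0 counts in Input and IgG and 28 and 12 in anti-m6A. Serpinh1, the collagen chaperone HSP47, fell by 1.12 (-1.12 ± 0.26, adjusted p = 0.0191); it was added beside the rule as the chaperone specific to collagens.

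Of 14 genes of cleavage, fibril assembly and cross-linking, 10 were tested; 2 were higher and 1 lower, beside 28% and 20.5% of all genes, and the median was 0.09. Sparc, a collagen-binding protein of bone matrix, had 18161 and 33903 counts in Input and 36929 and 31716 in anti-m6A (1.53 ± 0.22, adjusted p = 0.00716), and Adamts14, which trims procollagen, had 0 counts in Input and IgG and 26 and 25 in anti-m6A. Fn1, fibronectin, fell (-1.99 ± 0.29, adjusted p = 0.00716). The cross-linking enzymes Lox, Loxl1, Loxl2 and Loxl3 did not pass, with log2 changes of -0.04 to 0.39. Of 11 collagen receptors 7 were tested, with a median of -1.0. None was called by edgeR, and 1 was lower at an unadjusted p under 0.05. DESeq2 called all 7 lower, where it called 32.2% of all genes lower, against 20.5% by edgeR. Against IgG, the 3 lists gave 15, 7 and 5 genes higher and 5, 3 and 1 lower, of 21, 10 and 7 tested, where 73.1% of all genes were higher and 8.31% lower.

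Features of the transcripts were set beside the change from Input to anti-m6A as a description. The 22 tested collagens with more than 3 counts in each of both groups entered. They share libraries, and their motif density, length and base composition were not separated from one another. Spearman's rho was 0.40 with GGAC per kb, 0.07 with GGACT per kb, 0.44 with GC content, -0.49 with the longest exon and -0.10 with transcript length. Pearson's r was 0.43, 0.17, 0.39, -0.28 and -0.03 in the same order. Over 8555 genes of the table under the same count rule the rho values were 0.05, 0.01, 0.08, -0.16 and -0.25. Among the named chains, Col4a2 and Col16a1, which were not lower by the test, held 11.8 and 13.8 GGAC per kb. Col1a2 and Col14a1, which were lower, held 6.17 and 7.28. Other chains went the other way: Col4a1, Col3a1 and Col18a1, also lower, held 11.3, 10.1 and 10.0, and Col6a3 and Col12a1, not called, 6.13 and 4.6.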

How the data were processed

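The deposited table holds whole-number read counts of each gene in 6 libraries. It was made with mm10 as the build, Picard, featureCounts and edgeR 3.38.1, per the submitters' processing notes; their order, an aligner and an annotation are not named there. Gene numbers were matched to symbols in the RefSeq table of GRCm38.p6 (25275 of 27179; the rest held 0.722% to 1.38% of a library's counts). Groups and replicate numbers come from the sample titles.

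All genes with filterByExpr's minimum count of 10 and total of 15 (11281) entered 1 edgeR 4.0.16 quasi-likelihood fit (R 4.3.3, limma 3.58.1) with TMM, 3 group means, 3 residual degrees of freedom, and Benjamini-Hochberg adjustment at 0.05. The code of the fit was tried on simulated counts with the same spread in all groups. That simulation leaves out the many zeros of IgG and the unequal spread between replicate pairs, so it does not test the fit under these conditions. The SE is the change divided by the square root of F. Folds against 0 counts use a floor of 3 counts per library; groups with 1 to 3 counts get a ratio with its exact interval. An exact permutation test of 2 against 2 libraries cannot go below 0.333, so none was run.

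Transcript features and exon sequences were read from GENCODE M21 (1 transcript per gene; gene spans in coordinates from RefSeq). Levels use merged exon length, because the length in the RefSeq table is the genomic span. Libraries do not mark strand: exons of Col5a1 overlap genes on the other strand by 99 and 113 bases, those of Col4a2 by 43 and 22, and those of Col22a1 by 16, and Col3a1 shares 141 bases with a gene on its own strand.

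Named with values are collagens called in anti-m6A against Input or IgG or among the 8 highest per kb in Input, and from each list the 2 largest called changes per direction. Col2a1, Serpinh1, the cross-linking enzymes, the collagens too low to test and the chain pairs are named beside this rule, chosen after their values were seen. The collagens and lists were chosen with earlier results of these data known. Alternatives were DESeq2 1.42.0, other scalings and filters, a replicate block, the compared groups alone, and leaving out each library.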

Additional observations from a re-analysis of the deposited data

How the results depend on the processing

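Counting calls among collagens, the filter of at least 10 counts in each library left 6 of them and 1757 genes. It gave 2 higher in anti-m6A than IgG, 0 higher and 5 lower than Input, and 1 higher and 3 lower in IgG than Input. Of the 1757 genes, 33.8% were higher in anti-m6A than IgG, and 23.3% higher and 29.5% lower than Input. In IgG against Input these shares were 27.3% higher and 32.5% lower. The collagens' median for anti-m6A against IgG reversed to -0.89, because genes at 0 in IgG drop out. Higher than Input in anti-m6A were 2 with DESeq2, 2 with no count filter and 3 with the 2 compared groups alone. Leaving out 1 library gave 0 to 5 higher and 0 to 18 lower. Scaling by DESeq2 size factors moved the median change of all genes by -0.40 and library totals by -0.51; relative to that median the collagens' median was -1.27 with TMM, -1.31 and -1.30. Negative changes numbered 19, 22 and 23 of 26. Leaving out any 1 library kept the counts of anti-m6A against IgG and of IgG against Input within 1.5 times those in the report. Per kb of the longest transcript, Col1a2, Col5a2, Col3a1 and Col6a2 had 403, 66.5, 72.8 and 52.4 CPM per kb.

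Replicates that share a number deviated together hardly at all (r of 0.0415, 0.0859 and 0.0997 over 11281 genes). With 2 libraries per group, such r values cannot show whether the numbers pair the libraries. With a replicate block, anti-m6A against Input gave 11 lower and 1 higher; Col3a1, Col5a2, Col11a1 and Col4a1 were lost (adjusted p of 0.0508 to 0.0648). Against IgG the block gave 18 higher and 4 lower, beside 69.3% and 7.77% of all genes. IgG against Input gave 3 higher and 18 lower with the block, beside 9.41% and 59.4% of all genes. Depth limits the IgG group most: 3 counts stand for up to 1.94 CPM there.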
